A study of Mus musculus with 9 samples.

Results

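The peroxisome proliferator-activated receptors (PPARs), the retinoid X receptors (RXRs) that pair with them, the PGC-1 coactivators and the fatty acid binding proteins (FABPs) were examined in cultures of mouse heart valve interstitial cells (VICs), the fibroblast-like cells of the leaflets. The 10 genes, taken by symbol from a table of 51810 genes, were Ppara, Ppard, Pparg, Rxra, Rxrb, Ppargc1a, Ppargc1b, Fabp3, Fabp4 and Fabp5. The cells were taken from C57BL/6J mice, from the aortic and mitral valves, and were cultured with 10% serum, insulin at 5 ug/mL, EGF at 2 ng/mL and basic FGF at 0.5 ng/mL. Of the 9 libraries, 3 came from cells given oxidised low-density lipoprotein (oxLDL) at 50 ug/mL, 3 from cells given native LDL at 50 ug/mL and 3 from cells given buffer (Control, called untreated in 1 label), each for 24 h at 37 C. No label states whether the 3 libraries of a treatment had separate cultures or animals behind them. The p-values therefore describe the spread among these libraries alone, and that spread may be technical.

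PPARs are nuclear receptors that are activated by fatty acids and their derivatives, and bind DNA as pairs with an RXR. The PGC-1 proteins are coactivators that dock on such receptors and are known for driving mitochondrial and oxidative genes. FABPs are small cytoplasmic proteins that carry fatty acids within the cell, in part to the nucleus, and Fabp4 is itself a known PPARG target in adipocytes. In vascular and valve biology PPARs are known for their links to lipid uptake, fatty acid oxidation and inflammation. The design compares the levels of these genes, and of listed partners and targets, between cells given LDL or oxLDL and cells given buffer.

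Levels are in TPM, a unit that corrects for gene length and gives a gene's part of all transcripts in its library, so levels can be set side by side between genes. Read depth is unknown, and no counting interval can be given. Differences were tested with limma on log2(TPM + 1), a scale that understates the change of low genes, for the 13495 genes that averaged 1 TPM or more over the 9 libraries. Of the 10 genes, 7 passed this filter, while Ppara, Ppargc1a and Ppargc1b did not. A gene was called at a Benjamini-Hochberg adjusted p under 0.05 over all genes tested. Means are ± SD over n = 3 libraries. Libraries that carry the same replicate number moved together, so confidence intervals with the number as a block are given beside the others. The 10 valve interstitial markers summed to 13000 to 15300 TPM in oxLDL, 12400 to 13900 TPM in LDL and 13700 to 14500 TPM in Control libraries, and the 10 endothelial markers to 209 to 469, 220 to 488 and 221 to 467 TPM in the same order of treatments. The cultures therefore held endothelial transcripts beside the valve interstitial ones.

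None of the 7 tested genes passed the test with either lipoprotein, and the 10 genes covered a wide range of levels. Fabp5 was the most abundant of the 10, with a mean of 155 TPM over the 9 libraries, above 92.3% of the tested genes. Ppard, Rxra, Rxrb and Fabp4 followed at 27.3, 25.8, 22.6 and 21.4 TPM. Their ranges over the libraries overlapped from neighbour to neighbour, at 23.32 to 30.77 TPM for Ppard, 23.27 to 28.07 TPM for Rxra, 20.23 to 24.02 TPM for Rxrb and 11.13 to 33.16 TPM for Fabp4. Fabp3 averaged 6.79 TPM and Pparg 2.22 TPM, with ranges of 4.33 to 11.64 and 0.96 to 4.63 TPM that met only at their ends. Ppara, Ppargc1a and Ppargc1b averaged 0.519, 0.303 and 0.231 TPM, and were above 0 in all 9 libraries.

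**Figure D1:**
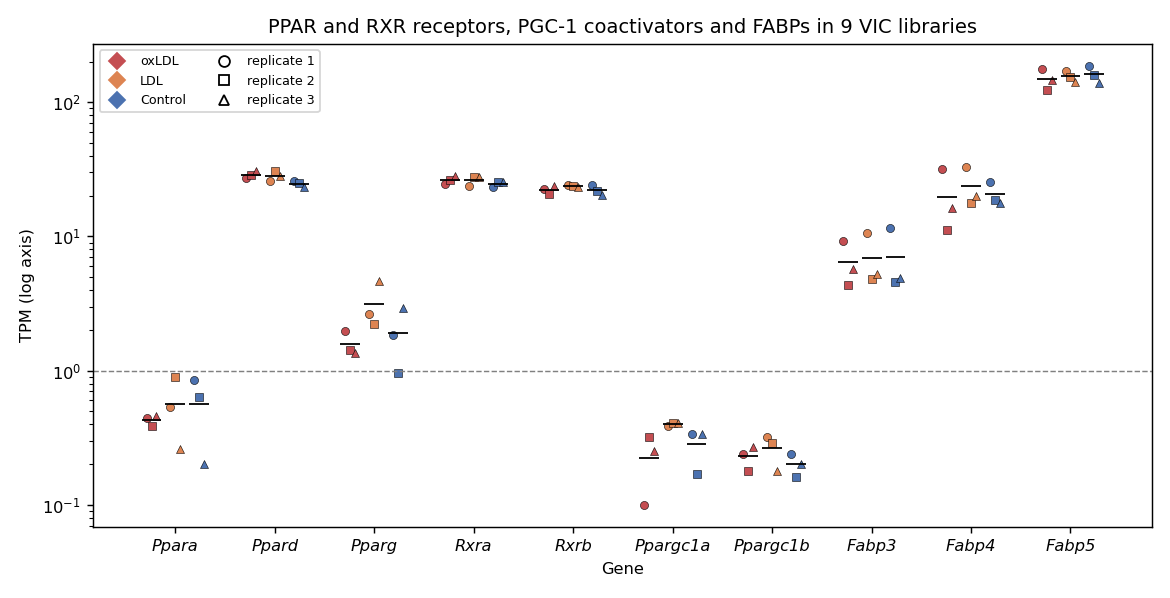
Level of each of the 10 genes in TPM (log axis) in every library. Colours give the treatment (oxLDL, LDL, Control, left to right), marker shapes the replicate number, black bars the mean of 3 libraries and the dashed line the 1 TPM filter. Fabp5 lies above 100 TPM in every library, Ppard, Rxra and Rxrb between 20.23 and 30.77 TPM, and Ppara, Ppargc1a and Ppargc1b below 1 TPM.

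Of the 7 tested genes, 0 were called by limma in any of the 3 comparisons. The background was 0.333% of tested genes called for LDL against Control, 0.0148% for oxLDL against Control and 0.104% for oxLDL against LDL. At an unadjusted p under 0.05 the counts were 0 of 7 for LDL against Control, where 6.65% of all tested genes lay under it, 1 of 7 for oxLDL against Control (Ppard, background 3.86%) and 1 of 7 for oxLDL against LDL (Pparg, background 3.91%). With the replicate number as a block the calls were again 0 of 7 in each comparison, against 0.852, 0.126 and 0.259% of all tested genes. Under that block the genes with an unadjusted p under 0.05 were 2 for LDL against Control (Ppard and Pparg), 1 for oxLDL against Control (Ppard) and 1 for oxLDL against LDL (Pparg), where 13.1, 9.08 and 8.51% of all tested genes did. The median log2 difference of the 7 genes was 0.10 for LDL against Control, -0.07 for oxLDL against Control and -0.07 for oxLDL against LDL, beside medians of 0 over all genes tested.

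**Figure D2:**
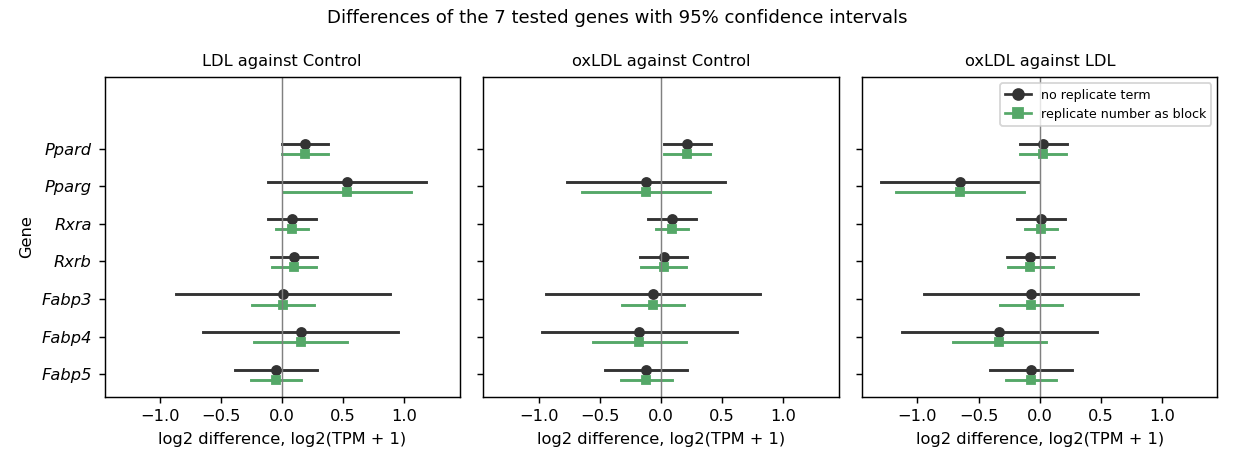
Log2 differences on the log2(TPM + 1) scale for the 7 tested genes in the 3 comparisons. Bars are 95% confidence intervals from limma, in black without a replicate term and in green with the replicate number as a block. The intervals of Rxra, Rxrb, Fabp3, Fabp4 and Fabp5 include 0 in all panels, and the block narrows those of Fabp3, Fabp4 and Fabp5.

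Ppard, the broadly expressed PPAR known for fatty acid oxidation in muscle, lies on chromosome 17 from 28232700 to 28301474 (GRCm38, plus strand). It read 27.32, 28.59 and 30.72 TPM in the oxLDL libraries, 25.95, 30.77 and 28.31 TPM in the LDL libraries and 25.93, 24.96 and 23.32 TPM in the Control libraries. All 6 libraries given a lipoprotein lay above all 3 Control libraries, in LDL by as little as 0.02 TPM, and the LDL and oxLDL values overlapped. Among all tested genes, 3.5% lay without overlap above Control in oxLDL and 5.61% in LDL, and 7.33 and 10.7% lay apart in either direction. The means were 28.9 ± 1.72 TPM in oxLDL, 28.3 ± 2.41 TPM in LDL and 24.7 ± 1.32 TPM in Control. The log2 difference was 0.21 for oxLDL against Control (95% CI 0.02 to 0.41, adjusted p = 1, and 0.49 with the block) and 0.19 for LDL against Control (95% CI -0.0038 to 0.38, adjusted p = 0.76, and 0.38 with the block), neither of which passed. With the block the intervals were 0.03 to 0.40 for oxLDL against Control and 0.0003 to 0.37 for LDL against Control. Between oxLDL and LDL the difference was 0.03 (95% CI -0.16 to 0.22, and -0.16 to 0.21 with the block). Both comparisons with Control share the same 3 Control libraries. The treatment held 60.8% of the sum of squares of log2 Ppard over the 9 libraries, and the replicate number 7.62%, against medians of 16.9 and 44.2% over all genes tested.

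Pparg, the receptor of adipocyte differentiation and of macrophage lipid handling, lies on chromosome 6 from 115360951 to 115490399 (GRCm38, plus strand). It read 1.96, 1.43 and 1.35 TPM in oxLDL, 2.64, 2.21 and 4.63 TPM in LDL and 1.85, 0.96 and 2.92 TPM in Control libraries. The 3 oxLDL values lay below the 3 LDL values, as they did for 4.2% of tested genes (8.31% in either direction), while the Control values overlapped both. Pparg was higher in LDL than in Control at each of the 3 replicate numbers, by 0.79, 1.25 and 1.71 TPM, and lower in oxLDL than in LDL at each, by 0.68, 0.78 and 3.28 TPM. Neither pattern was particular to Pparg among the 10 genes. Ppard, Rxra, Rxrb and Ppargc1a were also higher in LDL than in Control at each number. Fabp4 and Ppargc1a were also lower in oxLDL than in LDL at each. The share of all tested genes with such patterns was not computed. The means were 1.58 ± 0.332 TPM in oxLDL, 3.16 ± 1.29 TPM in LDL and 1.91 ± 0.981 TPM in Control. The log2 difference was -0.65 for oxLDL against LDL (95% CI -1.30 to -0.0074, adjusted p = 1, and 0.43 with the block), 0.53 for LDL against Control (95% CI -0.12 to 1.18, adjusted p = 0.87, and 0.37 with the block) and -0.12 for oxLDL against Control (95% CI -0.77 to 0.52, adjusted p = 1). With the block the intervals were -1.17 to -0.13, 0.0081 to 1.05 and -0.65 to 0.40 for the same 3 comparisons, so those of LDL with either of the others no longer included 0. None of these passed after adjustment, and the intervals do not exclude differences of more than 1 on the log2 scale between LDL and either of the others.

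Because Pparg is also a gene of macrophages and adipocytes, markers of both cell types were read beside it. The 11 macrophage and leukocyte markers, all of them tested, summed to 142, 36.5 and 263 TPM in oxLDL, 228, 68.9 and 173 TPM in LDL and 131, 64.4 and 140 TPM in Control libraries, with 0 of 11 listed at 0 throughout. On the log2(TPM + 1) scale, all 11 had higher means in LDL than in Control (median difference 0.28) and lower means in oxLDL than in LDL (median -0.24). By limma 0 of 11 were called in each, also with the block, and 0 had an unadjusted p under 0.05. In TPM, the oxLDL means of C1qb (21 against 20.7), Aif1 (1.73 against 1.61) and Cd68 (38.6 against 37.6) lay above the LDL means. The log2 difference between oxLDL and LDL changed sign for all 11 in some fits that left out 1 library. Their part in the Pparg differences was not tested. The 8 adipocyte markers were at or near 0, with sums of 0.31 to 0.45 TPM in oxLDL, 0.09 to 0.36 TPM in LDL and 0.23 to 0.47 TPM in Control libraries, and Cfd was listed at 0 in all 9. In bulk samples, fewer cells of a type and less RNA per cell cannot be told apart.

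Ppara, the PPAR of liver and heart, lies on chromosome 15 from 85734983 to 85802819 (GRCm38, plus strand) and stayed below 1 TPM. It read 0.44, 0.39 and 0.46 TPM in oxLDL, 0.54, 0.89 and 0.26 TPM in LDL and 0.85, 0.64 and 0.2 TPM in Control libraries, with all 3 treatments overlapping. Ppard exceeded Ppara by 30.5 to 117 times and Pparg by 6.11 to 26 times over the 9 libraries. Pparg made up 5.15 ± 1.28% of the summed PPAR TPM in oxLDL, 9.84 ± 3.77% in LDL and 7.04 ± 3.75% in Control. This composition did not pass an exact permutation test over the 3 treatments (two-sided by its F statistic, p = 0.243, smallest possible 0.00357, and p = 0.111 when permuted within replicate numbers, smallest possible 0.0278).

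Rxra and Rxrb, the shared partners of the PPARs and of other nuclear receptors, were nearly equal in level. Rxra lies on chromosome 2 from 27676440 to 27762957 and Rxrb on chromosome 17 from 34031812 to 34038399 (GRCm38, both on the plus strand). Rxra read 24.7, 26.28 and 28.07 TPM in oxLDL, 23.61, 27.53 and 27.6 TPM in LDL and 23.27, 25.43 and 25.34 TPM in Control libraries. Rxrb read 22.39, 20.73 and 23.88 TPM in oxLDL, 24.02, 23.57 and 23.17 TPM in LDL and 23.98, 21.84 and 20.23 TPM in Control libraries. Both genes overlapped between all treatments. Their intervals were among the narrowest of the 7 genes, at -0.11 to 0.29 for Rxra and -0.17 to 0.21 for Rxrb (log2 difference, 95% CI) in oxLDL against Control, and at -0.11 to 0.28 and -0.09 to 0.29 in LDL against Control. With the block they were -0.04 to 0.22 for Rxra and -0.16 to 0.20 for Rxrb in oxLDL against Control, and -0.05 to 0.21 and -0.08 to 0.28 in LDL against Control. Rxra made up 54.1 ± 1.73% of the summed TPM of both genes in oxLDL, 52.6 ± 2.64% in LDL and 52.9 ± 3.28% in Control (exact permutation p = 0.729, two-sided).

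Promoters of the 10 genes were searched for AGGTCA, the core motif that PPAR and RXR pairs bind. RefSeq promoter windows (GRCm38.p6, from 250 bases before to 50 after a start) were held for 7 of the 10 genes, in 11 windows. These 7 were the PPAR and RXR genes, Fabp3 and Ppargc1a. On either strand 3 of these 11 windows held AGGTCA (27.3%), against 5340 of 32851 windows of all genes (16.3%). The paired form AGGTCANAGGTCA, which contains the core motif at both ends, was in 0 of the 11 and in 0.0396% of all windows. The windows with a match are shown because they belong to Pparg, the gene with the largest log2 differences of the 7 tested in both comparisons that involve native LDL, and to Rxra. Capitals mark AGGTCA, or TGACCT where it lies on the other strand, and the sequences run 5′ to 3′ on the plus strand.
Pparg, first start, chr6:115361104-115361133: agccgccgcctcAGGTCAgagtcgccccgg
Pparg, next start, chr6:115362328-115362348: agggacgcgaggAGGTCAaga
Rxra, downstream start, first match, chr2:27709193-27709222: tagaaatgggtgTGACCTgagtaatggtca
Rxra, downstream start, second match, chr2:27709232-27709261: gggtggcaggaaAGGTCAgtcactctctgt
The Pparg matches begin 28 and 9 bases before their starts and the Rxra matches 87 and 48 bases before theirs. A match describes the letters of a window and not a bound site, and gene-level TPM does not say which start was used.

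The PGC-1 coactivators were near the lower end of what the table lists. Ppargc1a, the coactivator known for mitochondrial biogenesis, lies on chromosome 5 from 51454250 to 51567726 and Ppargc1b, its close relative, on chromosome 18 from 61298136 to 61400431 (GRCm38, both on the minus strand). Ppargc1a read 0.1, 0.32 and 0.25 TPM in oxLDL, 0.39, 0.41 and 0.41 TPM in LDL and 0.34, 0.17 and 0.34 TPM in Control libraries. Its LDL values lay above all others, but at levels below 1 TPM with an unknown number of reads, and it was not tested. Among tested genes, 5.61% lay without overlap above Control in LDL and 4.2% below LDL in oxLDL. No such share was computed for genes under the filter. Without the filter the log2 difference of Ppargc1a was -0.20 for oxLDL against LDL and 0.13 for LDL against Control (limma adjusted p = 1 and 0.96). Ppargc1b read 0.24, 0.18 and 0.27 TPM in oxLDL, 0.32, 0.29 and 0.18 TPM in LDL and 0.24, 0.16 and 0.2 TPM in Control libraries, which overlapped. Ppargc1a made up 47.2 ± 17.3% of the summed TPM of both in oxLDL, 61 ± 7.58% in LDL and 57.7 ± 5.78% in Control (exact permutation p = 0.382, two-sided). Without oxLDL 2 that share spread further between treatments (exact permutation p = 0.0357). No other share and no other left-out library gave an exact permutation p under 0.05. With 1 TPM added to each gene, the range of the Ppargc1a share between treatments fell from 13.8 to 2.85 percentage points (exact permutation p = 0.325).

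The fatty acid chaperones differed more between replicate numbers than between treatments, which was not particular to them. The number held a median of 44.2% of the sum of squares over all genes tested, and the treatment 16.9%. For Rxra these shares were 69.9 and 21.1%. Fabp5, the epidermal-type FABP also made by macrophages and endothelium, lies on chromosome 3 from 10012548 to 10016607 (plus strand), Fabp4, the adipocyte-type FABP, on the same chromosome from 10204088 to 10208576 (minus strand), and Fabp3, the heart-type FABP, on chromosome 4 from 130308595 to 130315463 (plus strand, all GRCm38). Fabp3 read 9.17, 4.33 and 5.73 TPM in oxLDL, 10.66, 4.79 and 5.29 TPM in LDL and 11.64, 4.58 and 4.94 TPM in Control libraries of numbers 1, 2 and 3. The library numbered 1 was the highest of each treatment, and the treatments overlapped. The replicate number held 96.2% of the sum of squares of log2 Fabp3, a share above that of 99.6% of tested genes, and the treatment 0.509%. The log2 difference of Fabp3 was -0.07 for oxLDL against Control (95% CI -0.94 to 0.81) and narrowed to a CI of -0.32 to 0.18 with the block. For LDL against Control it was 0.01 (95% CI -0.87 to 0.88, and -0.24 to 0.26 with the block).

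Fabp4 read 31.69, 11.13 and 16.24 TPM in oxLDL, 33.16, 17.87 and 20.12 TPM in LDL and 25.56, 18.72 and 17.89 TPM in Control libraries, again highest in number 1 of each treatment. Its log2 difference was -0.33 for oxLDL against LDL (95% CI -1.13 to 0.46, adjusted p = 1, and -0.71 to 0.05 with the block, adjusted p = 0.66). Fabp4 was lower in oxLDL at 3 of 3 replicate numbers, and the share of all tested genes doing so was not computed. The log2 difference of Fabp4 was 0.15 for LDL against Control (95% CI -0.64 to 0.95, and -0.23 to 0.53 with the block) and -0.18 for oxLDL against Control (95% CI -0.97 to 0.62, and -0.56 to 0.20 with the block). Fabp5 read 178.21, 123.45 and 145.77 TPM in oxLDL, 171.15, 153.64 and 142 TPM in LDL and 186.37, 160.65 and 138.16 TPM in Control libraries. Fabp5 averaged 149 ± 27.5 TPM in oxLDL, 156 ± 14.7 TPM in LDL and 162 ± 24.1 TPM in Control. All treatments overlapped, and its log2 difference was -0.12 for oxLDL against Control (95% CI -0.46 to 0.22, and -0.33 to 0.09 with the block) and -0.05 for LDL against Control (95% CI -0.39 to 0.29, and -0.26 to 0.16 with the block). The replicate number held 76.4% of the sum of squares of Fabp4 and 68.2% of that of Fabp5, and the treatment 9.3 and 7.76%. These replicate number shares lay above those of 86.3 and 77.9% of tested genes. Fabp4 made up 10.7 ± 3.35% of the summed TPM of the 3 FABP genes in oxLDL, 12.5 ± 2.68% in LDL and 10.9 ± 0.653% in Control (exact permutation p = 0.636, two-sided).

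**Figure D3:**
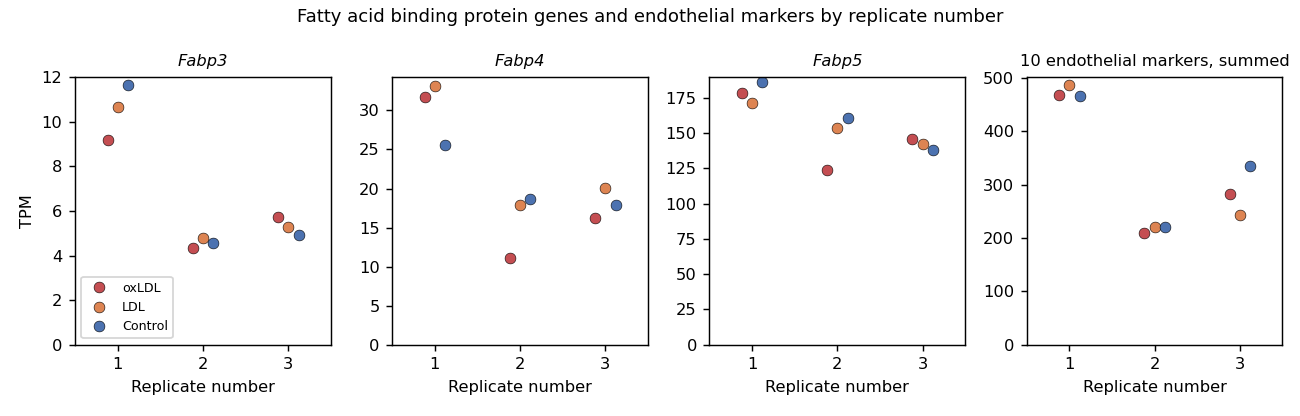
Levels of Fabp3, Fabp4 and Fabp5 and the summed level of 10 endothelial markers, in TPM, by replicate number. Each point is 1 library, coloured by treatment. All 4 panels are highest at number 1 in every treatment, where the endothelial sum is 467 to 488 TPM.

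Endothelial markers moved with the same replicate numbers. Their 10 genes summed to 469, 209 and 283 TPM in oxLDL, 488, 220 and 244 TPM in LDL and 467, 221 and 336 TPM in Control libraries of numbers 1, 2 and 3, with 10 of 10 tested and 0 at 0 throughout. Of these markers 8 of 10 were highest in number 1 of every treatment, as were Fabp3, Fabp4 and Fabp5, while 11.6% of all tested genes showed that pattern. So did 3 of 8 cardiomyocyte and 3 of 10 valve interstitial markers, but 0 of 11 macrophage and leukocyte and 0 of 8 adipocyte markers. Cardiomyocyte markers, read because Fabp3 is abundant in heart muscle, summed to 34.5, 18.6 and 10.2 TPM in oxLDL, 43.8, 15.8 and 16.2 TPM in LDL and 64.5, 10.4 and 24.1 TPM in Control libraries. Tnnt2, a troponin gene, made up most of these sums at 9.59 to 32.39 TPM in oxLDL, 11.75 to 37.6 TPM in LDL and 9.96 to 63.04 TPM in Control, and alone of the 8 passed the filter. Tnnt2 was lower in LDL than in Control (log2 difference -0.42, not called, and -1.03 to 0.24 over the fits without 1 library). The other 7 markers ran differently, with sums of 2.13, 0.9 and 0.6 TPM in oxLDL and 6.21, 2.21 and 4.47 TPM in LDL libraries. In Control libraries they summed to 1.49, 0.41 and 0.76 TPM. All LDL sums lay above all others, but LDL 2 at 2.21 TPM only just exceeded oxLDL 1 at 2.13 TPM. How often 7 genes at such levels separate in this way was not tested. All 7 had lower means in oxLDL than in LDL and higher means in LDL than in Control, at levels too low to be tested, and 0 of the 8 were at 0 in all libraries. The part of either cell type in the FABP levels was not tested. Without the 3 libraries numbered 1, again 0 of the 7 tested genes were called in any comparison, an alternative chosen after seeing the data.

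Of the 14 other intracellular lipid binding and related carrier genes listed, 6 were tested and 0 called in any comparison. At an unadjusted p under 0.05 1 passed for LDL against Control, 0 for oxLDL against Control and 2 for oxLDL against LDL. Fabp7, the brain-type FABP, averaged 1.16 ± 0.129 TPM in oxLDL and 1.9 ± 0.15 TPM in LDL (log2 difference -0.42, adjusted p = 0.85). Fabp1, Fabp6, Fabp9 and Fabp12 were listed at 0 in all 9 libraries. Among near-identical copies that could share reads with the FABP genes, Fabp5l2 was listed at 0 throughout and Fabp3-ps1 at 0 to 1.02 TPM. Fabp3 shares 81 exonic bases with Zcchc17 on the opposite strand (29.52 to 38.81 TPM), and the library kit does not mark strand, so reads there cannot be assigned to either gene.

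Coregulators and receptors that work with PPAR and RXR were likewise measured without a call, apart from Rarb. Of the 16 genes listed as coregulators, the receptor gene Rxrg among them, 15 were tested and 0 called in any of the 3 comparisons. At an unadjusted p under 0.05 the count was 0 in each. Hdac3, a corepressor deacetylase, averaged 61 ± 3.76 TPM in oxLDL, 60 ± 4.06 TPM in LDL and 65.3 ± 4.29 TPM in Control, and Ncoa1, a receptor coactivator, 6.81 ± 1.02, 8.36 ± 1.61 and 7.13 ± 1.03 TPM in the same order. Rxrg, the third RXR gene, named after its values were seen, was not tested and averaged 0.19 ± 0.115 TPM in oxLDL, 0.523 ± 0.193 TPM in LDL and 0.187 ± 0.108 TPM in Control. Of the 12 genes listed as PGC-1 partners and targets, 9 were tested and 0 called, also with 0 at an unadjusted p under 0.05. Tfam, which maintains mitochondrial DNA, averaged 42.4 ± 8.54 TPM in LDL and 48.9 ± 5.83 TPM in Control, a log2 difference of -0.21 (adjusted p = 0.98). Of the 13 other receptors listed, most of them RXR partners, 11 were tested and 1 was called. Rarb, a retinoic acid receptor, read 3.95, 4.08 and 3.87 TPM in oxLDL, 8.76, 12.97 and 15.61 TPM in LDL and 3.75, 5.71 and 4.53 TPM in Control libraries, with the LDL libraries above all others. It rose to 12.4 ± 3.45 TPM in LDL, against 4.66 ± 0.987 TPM in Control (log2 change 1.23, adjusted p = 0.047). That call was kept in 1 of 9 fits that left out 1 library, the adjusted p running from 0.032 to 0.21 over these fits, and it ended without oxLDL 1, 2 or 3, LDL 2 or 3, or Control 1, 2 or 3. Between oxLDL and LDL, Rarb was lower in oxLDL by -1.40 on the log2 scale with the block (adjusted p = 0.028) but did not pass without it (adjusted p = 0.051).

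Several listed targets of the PPARs rose with LDL. Of the 28 genes listed as PPAR targets and fatty acid oxidation genes 25 were tested, and for LDL against Control 8 rose and 0 fell (median log2 difference 0.27), against 0.178% of all tested genes called higher. For oxLDL against Control 0 passed, with 3 at an unadjusted p under 0.05 (8 with the block) and a median of 0.10. For oxLDL against LDL 3 fell and 0 rose (median -0.20), against 0.0667% of all tested genes called lower and 0.0371% called higher, and 5 fell with the block. The 7 tested receptor and FABP genes had 0 calls in the same fits, while the list was chosen with earlier results of these data known. The difference between these genes and their targets was not itself tested. Some markers of other cell types differed in the same directions as the targets in the fit of all 9 libraries. The endothelial markers did not, with median log2 differences of -0.16 (LDL against Control) and 0.01 (oxLDL against LDL). Tnnt2, the only cardiomyocyte marker tested, was lower in LDL than in Control (-0.42) and differed by -0.04 between oxLDL and LDL. Both signs changed over the fits without 1 library, which ran from -1.03 to 0.24 and from -0.46 to 0.46. On the log2(TPM + 1) scale, all 11 macrophage and leukocyte markers had lower means in oxLDL than in LDL (median difference -0.24). They had higher means in LDL than in Control (0.28), with all 11 overlapping between treatments and 0 called. These directions were not stable over the fits without 1 library. For oxLDL against LDL the sign changed for all 11, with C1qa running from -1.37 to 0.82 and Csf1r from -0.51 to 0.05. For LDL against Control it changed for Adgre1, Itgam, Tyrobp, Aif1 and Cd68. The 7 cardiomyocyte markers other than Tnnt2 summed to 0.6 to 2.13 TPM in oxLDL, 2.21 to 6.21 TPM in LDL and 0.41 to 1.49 TPM in Control libraries. Among them Myh6, a cardiac myosin heavy chain, named after its values were seen, was listed at 0 to 0.23 TPM in oxLDL, 0.65 to 0.78 TPM in LDL and 0 to 0.06 TPM in Control. The part of these cell types in the target levels was not tested.

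**Figure D4:**
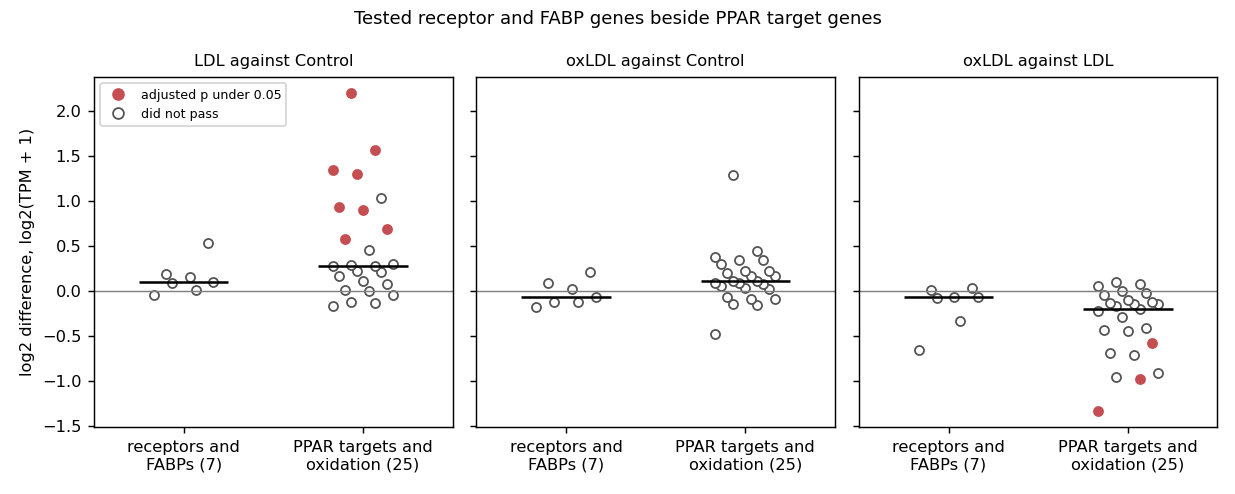
Log2 differences on the log2(TPM + 1) scale of the 7 tested receptor and FABP genes and of the 25 tested PPAR target and fatty acid oxidation genes. Filled points passed an adjusted p under 0.05, open points did not, and black bars are medians. In LDL against Control 8 target genes are filled, in oxLDL against LDL 3, and no receptor or FABP gene is.

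Angptl4, a secreted inhibitor of lipoprotein lipase and a sensitive PPAR target, read 100.39, 116.04 and 99.05 TPM in oxLDL, 169.86, 235.11 and 195.42 TPM in LDL and 32.5, 75.72 and 31.16 TPM in Control libraries. It rose with LDL against Control (log2 change 2.19, adjusted p = 0.025), but the oxLDL difference from Control of 1.28 did not pass (adjusted p = 0.64). Pdk4, a kinase that restrains glucose oxidation, read 12.18, 9.65 and 9.31 TPM in oxLDL, 29.33, 27.1 and 26.4 TPM in LDL and 9.86, 8.31 and 7.99 TPM in Control libraries. It fell in oxLDL against LDL (log2 change -1.34, adjusted p = 0.0059) and rose in LDL against Control (1.56, adjusted p = 0.0039). For both genes the LDL libraries lay above every other library.

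Ucp2, a mitochondrial carrier, rose to 41.6 ± 4.48 TPM in LDL, against 16.3 ± 0.361 TPM in Control (log2 change 1.3, adjusted p = 0.026). Acaa2, a thiolase of beta-oxidation, fell to 49.2 ± 2.65 TPM in oxLDL, against 74 ± 3.45 TPM in LDL (log2 change -0.58, adjusted p = 0.025). Cpt1a, which admits fatty acids to mitochondria, had the lowest p of the list for oxLDL against Control (70.6 ± 5.08 TPM in oxLDL and 51.4 ± 2.5 TPM in Control, a difference of 0.45 on the log2 scale, adjusted p = 0.23). The LDL against Control count of 8 was 4, 5 or 5 without Control 1, 2 or 3, 5, 2 or 3 without LDL 1, 2 or 3, and 5 without oxLDL 1. It was 2, 1 or 0 without all 3 libraries of number 1, 2 or 3. The oxLDL against LDL count of 3 was 1, 0 or 1 without oxLDL 1, 2 or 3, and 1 without LDL 1, 2 or 3 or without Control 1 or 2, and 1, 0 or 0 without all libraries of number 1, 2 or 3. For LDL against Control, Pdk4 and Cpt1a were called in 9 of 9 fits that left out 1 library, Angptl4 in 3 of 9 (those without oxLDL 2, oxLDL 3 or Control 2) and Ucp2 in 2 of 9 (those without oxLDL 2 or 3). For oxLDL against LDL, Pdk4 was called in 8 of 9 (not without oxLDL 2) and Acaa2 in 1 (without Control 3).

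By the rule of closest pattern, the genes most like Pparg over the 9 libraries, among 8789 tested genes averaging 10 TPM or more, were Socs5, a suppressor of cytokine signalling (Pearson r = 0.941, Spearman rho = 0.9), Gucy1b3, a guanylate cyclase subunit (0.936 and 0.933), and Sh3rf1, a ubiquitin ligase (0.936 and 0.933). Without the 2 libraries in which Pparg lay farthest from its median, r was 0.805, 0.877 and 0.793. Gucy1b3 read 26.42, 21.46 and 20.46 TPM in oxLDL, 36.47, 28.99 and 41.4 TPM in LDL and 30.33, 16.91 and 30.73 TPM in Control libraries. The genes most like Fabp4 were Frrs1, a ferric reductase (r = 0.979, rho = 0.933), Fbxo6, an F-box protein (0.951 and 0.85), and the gene model Gm12481 (0.95 and 0.817), with r of 0.954, 0.909 and 0.896 without the 2 farthest libraries. These are the highest of 8789 and 8788 values over 9 libraries that share replicate numbers and scaling, and they are given as a description.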

How the data were processed

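The authors deposited TPM values of 51810 genes in 9 libraries, 1 column each, with 0 columns left out and column sums of 999998.81 to 1000000.43. Per the submitters' processing notes, STAR, RSEM 1.3.1 and the build mm10 were used. Their annotation: not given in the sources used here. Per the labels' protocols, libraries came from amplified cDNA of 50 ng RNA and were read in 100 bp pairs with a kit known not to mark strand. TPM keeps no depth, so no precision from read counts is given.

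Two-sided tests were made with limma 3.58.1 (R 4.3.3, moderated with a trend on mean level) on log2(TPM + 1), for 13495 genes averaging 1 TPM or more, with 38315 left out. The spread was estimated from all 9 libraries together (6 residual degrees of freedom). Shares of summed TPM were compared by an exact permutation test over all assignments to treatments, in Python 3.11.15. Both scripts were tested on simulated data. No permutation test was run per gene, since 3 against 3 libraries cannot go under 0.1.

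The titles give each sample a replicate number. Correlations of the deviations from treatment means were 0.172 to 0.497 in the 9 same-numbered pairs and -0.309 to 0.13 in 18 pairs that differ in number and treatment. On this check alone the numbers pair the samples, since no label states a shared culture. Fits that carry the number as a block have 4 residual degrees of freedom. They are printed beside the intervals of the receptor and FABP genes, and elsewhere where they change a call. Counts of listed genes at an unadjusted p under 0.05 are without the block unless stated, and several were higher with it.

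The genes, lists and tests were chosen with earlier results of these data known. All 10 genes are named, and from each pathway list up to 4 called genes by size of change or the 1 or 2 lowest p-values where none passed. For Pparg and Fabp4, the 3 genes with the highest Pearson r are named. Some genes that this rule selects are left out of the text. The other alternatives were the pseudocount, the filter, the scaling, the libraries fitted and leaving out libraries. Positions are from GENCODE M21 (GRCm38, the same assembly as mm10), which holds 92.1% of the table's symbols, and promoters from RefSeq.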

Additional observations from a re-analysis of the deposited data

How the results depend on the processing

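Over all alternatives, 0 of the 7 tested genes were called in any comparison. Their signs changed only where the difference was small. Fabp3 for LDL against Control came to 0.00 with a pseudocount of 5 TPM, and ran from -0.31 to 0.38 over the fits without 1 library. Those fits ran from -0.10 to 0.32 for Fabp4 and from -0.16 to 0.06 for Fabp5. For oxLDL against Control they ran from -0.38 to 0.12 (Pparg), -0.04 to 0.08 (Rxrb), -0.32 to 0.31 (Fabp3), -0.57 to 0.15 (Fabp4) and -0.26 to 0.01 (Fabp5). For oxLDL against LDL they ran from -0.03 to 0.09 (Ppard), -0.06 to 0.05 (Rxra), -0.33 to 0.24 (Fabp3) and -0.21 to 0.05 (Fabp5).

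Leaving out all 3 libraries of 1 number, chosen after seeing the data, also turned signs. Without number 1 Fabp3 was 0.06 for oxLDL against Control and Rxra -0.02 for oxLDL against LDL. Without number 2 Fabp3 was -0.02 for LDL against Control, Fabp4 0.08 and Fabp5 0.01 for oxLDL against Control, and Fabp5 0.05 for oxLDL against LDL. Without number 3 Fabp3 was -0.03 for LDL against Control, Pparg 0.18 and Rxrb -0.08 for oxLDL against Control, and Ppard -0.02 and Rxra 0.00 for oxLDL against LDL.

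Over all genes, 45 were called for LDL against Control, 2 for oxLDL against Control and 14 for oxLDL against LDL. In that order, the block on replicate numbers gave 115, 17 and 35, and the calls were 19, 10 and 8 without the filter, and 9, 1 and 6 from the 6 compared libraries alone. With a pseudocount of 5 TPM oxLDL against Control gave 1. Without 1 library they ran from 4 to 37, 1 to 3 and 1 to 10. Without numbers 1, 2 or 3 they were 11, 7 or 3 for LDL against Control, 2, 5 or 0 for oxLDL against Control, and 7, 4 or 5 for oxLDL against LDL.

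The PPAR target calls for LDL against Control were 5 without the filter, 2 to 7 without 1 library, and 2, 1 or 0 without numbers 1, 2 or 3. For oxLDL against Control they were 0 to 1 without 1 library and 1 without number 2. For oxLDL against LDL they were 5 with the block, 1 from the 6 libraries alone, 0 to 2 without 1 library, and 1, 0 or 0 without numbers 1, 2 or 3. The range of the Ppargc1a share between treatments was 13.8 percentage points, 2.85 with 1 TPM added and 22.3 without oxLDL 2. It ran from 4.96 to 22.3 over the fits without 1 library. Other shares kept their side of the threshold. The block changed no other call of the report. The cause of these changes was not tested, and with an unknown depth no limit of detection can be given for genes below 1 TPM.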
